A study of Rattus norvegicus with 8 samples.

Results

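The genes described here are 9 genes of the brain extracellular matrix: the lecticans Ncan, Bcan, Vcan and Acan, the membrane proteoglycans Cspg5 and Ptprz1, the tenascins Tnc and Tnr, and the hyaluronan synthase gene Has2. They were chosen by gene symbol, and all 9 were found among the 28546 rows of the count table. The 8 RNA-seq libraries came from cultured astrocytes of rat pups (Sprague Dawley). Control astrocytes (n = 2) were exposed to 12-273 BM melanoma cells carrying a scrambled hairpin. For sh-APP (n = 3), those melanoma cells instead carried a hairpin against APP, the gene of the amyloid precursor protein. For anti-Abeta (n = 3), the scrambled-hairpin setting was combined with an antibody against amyloid beta. All groups therefore shared the exposure to melanoma cells, and astrocytes without melanoma were not analysed here. The labels name a melanoma co-culture in one place, 24 h in melanoma-conditioned medium in another, and astrocyte medium put on melanoma cells in a further one, and they do not say which applied. A single melanoma culture was used. The trailing numbers of the library names run group by group: 1 and 2 for control, 4 to 6 for anti-Abeta and 7 to 9 for sh-APP. The run has a gap after the controls, and what the numbers stand for is not stated.

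Lecticans are chondroitin sulfate proteoglycans that bind hyaluronan at one end and tenascins at the other, and together these molecules form the loose matrix around neurons and astrocytes. Neurocan (Ncan) and brevican (Bcan) are largely restricted to the nervous system, whereas versican (Vcan) and aggrecan (Acan) also occur in other tissues. Astrocytes are a main source of this matrix, and its chondroitin sulfate chains are known to restrain the growth of axons.

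The total count ran from 34250464 to 47831595 per library. Replicates within a group differed by 17.1 to 45.8 times the counting noise (chi-square per degree of freedom), more than repeated sequencing of the same library would give. The highest value, 45.8, was for anti-Abeta replicates 2 and 3, and anti-Abeta replicate 1 stood apart on the second principal component. Whether libraries stem from separate cultures is not in the labels, and p-values here cover only library-to-library spread, which may be technical. Levels are CPM, counts scaled to a common library total, with TMM factors that correct for RNA composition. Called means a Benjamini-Hochberg adjusted p under 0.05 across 14445 tested genes in the quasi-likelihood test of edgeR. Of the 9 genes, 8 passed the low-count filter, and Acan did not. CPM is not corrected for gene length, so levels are compared between groups and not between genes.

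The first comparison asks what the hairpin against APP in the melanoma cells changed in the astrocytes' matrix genes. Both brain lecticans with substantial counts, Ncan and Bcan, rose in sh-APP, by 2.27-fold and 1.92-fold. Ptprz1 and Has2 fell, to 0.653 and 0.524 of the control level. Vcan, Cspg5, Tnc and Tnr were not called. Thus 2 of 8 tested genes rose and 2 fell, where the share called was 53.7% over all tested genes (25.8% higher, 27.9% lower). The same 4 genes had libraries that did not overlap between the groups, 2 above and 2 below, as did 70.7% of all tested genes (35.7% above, 35% below). The median log2 fold change of the 8 genes was 0.10, against 0.03 over all tested genes. The count of called genes is therefore close to the background, and the results below are about single genes. In RNA from whole cultures, fewer cells of a type and less RNA per cell cannot be told apart.

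**Figure D1:**
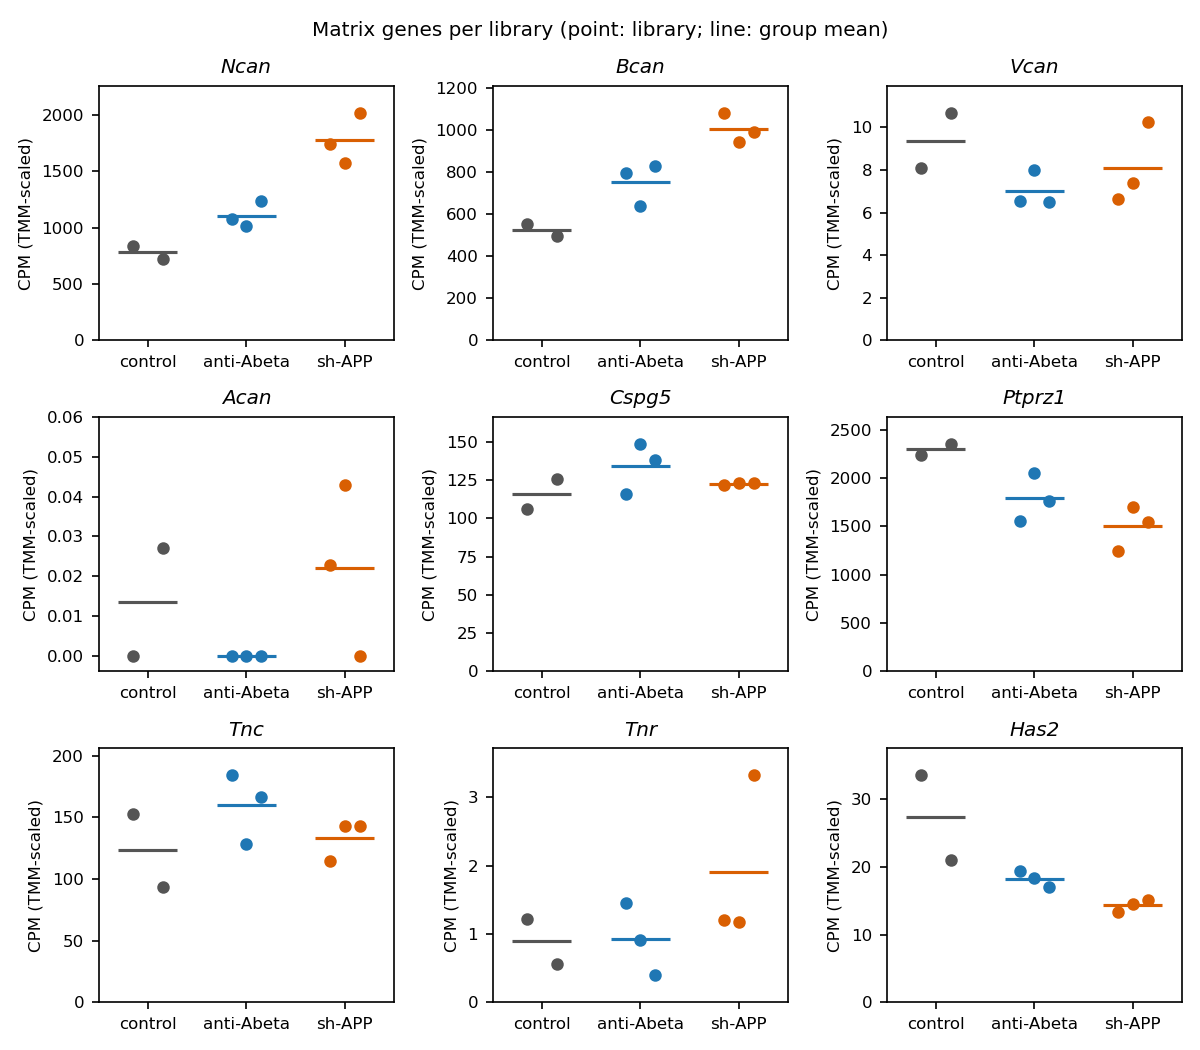
Level of each of the 9 matrix genes in every library, in TMM-scaled CPM on linear axes, with points for libraries and lines for group means (control n = 2, anti-Abeta n = 3, sh-APP n = 3). Ncan and Bcan are lowest in control and highest in sh-APP with no overlap between groups, Has2 runs the other way, and Acan lies at 0 to 0.0429 CPM.

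Neurocan and brevican were the lecticans that moved together, so the sequence around their start sites is shown. Each run covers 250 bases before to 50 bases after the annotated start, 5′ to 3′ on the strand of the gene, from RefSeq (GRCr8, a later build than that of the counts). Capitals mark the GC box, GGGCGG or its reverse complement CCGCCC. The Ncan window lies at chr16:19335657-19335956 on the plus strand and the Bcan window at chr2:175765265-175765564 on the minus strand.
Ncan: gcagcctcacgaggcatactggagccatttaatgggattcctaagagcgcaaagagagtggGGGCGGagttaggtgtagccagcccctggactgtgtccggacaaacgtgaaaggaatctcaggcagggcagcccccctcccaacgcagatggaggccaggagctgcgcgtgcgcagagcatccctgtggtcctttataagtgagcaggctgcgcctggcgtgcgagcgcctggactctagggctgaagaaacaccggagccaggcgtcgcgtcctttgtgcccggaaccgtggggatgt
Bcan: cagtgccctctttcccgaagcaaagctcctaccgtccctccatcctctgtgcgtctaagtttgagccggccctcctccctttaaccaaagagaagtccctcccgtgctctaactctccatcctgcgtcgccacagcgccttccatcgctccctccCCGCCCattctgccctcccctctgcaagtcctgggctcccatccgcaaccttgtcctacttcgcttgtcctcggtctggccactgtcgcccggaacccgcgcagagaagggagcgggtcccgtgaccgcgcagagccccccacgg
Each window held 1 GC box on either strand, beginning at position -189 relative to the start site in Ncan and at -95 in Bcan. A GC box occurred in 33.1% of the 33469 promoter windows of this length. Neither window held the AP-1 motif TGANTCA (present in 7.33% of all windows), the STAT motif TTCNNNGAA (8.87%), the NFI half-site TTGGCA (14.0%) or the CRE motif TGACGTCA (1.83%), searched on both strands. GC content was 61.7% in the Ncan window and 64.0% in the Bcan window, against a median of 51.7% over all windows. Sequences were matched for 6 of the 9 genes, and genes that were not called held the same letters. Vcan had 1 GC box in each of its 2 windows (GC content 61.0% and 60.0%), Tnc had 1 (52.3%), Acan had 3 (73.0%) and Tnr had 0 (38.3%). None of these windows held any of the other 4 motifs.

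Ncan encodes neurocan, a secreted lectican of developing brain. It stood at 836 and 724 CPM in the control libraries, at 1072, 1011 and 1236 in anti-Abeta replicates 1 to 3, and at 1739, 1568 and 2012 in sh-APP replicates 1 to 3. Every sh-APP library was above every anti-Abeta library, and every anti-Abeta library was above both controls. The log2 fold change in sh-APP against control was 1.18 ± 0.12 (SE, adjusted p = 9.94e-06, edgeR). Among all 14445 tested genes this was the 400th highest. The call held under all 18 alternatives, with fold changes from 1.08 to 1.39.

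Bcan encodes brevican, which is abundant in mature brain matrix and is also made by oligodendrocyte precursors. Its levels were 553 and 495 CPM in control, 792, 636 and 828 in anti-Abeta, and 1078, 943 and 989 in sh-APP. As with Ncan, the groups did not overlap and ran from control to anti-Abeta to sh-APP. The log2 fold change in sh-APP was 0.94 ± 0.11 (SE, adjusted p = 2.81e-05, edgeR), with a range of 0.88 to 1.14 over the 18 alternatives, all of which kept the call.

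The remaining lecticans were scarce. Vcan encodes versican, a lectican of many connective tissues and of oligodendrocyte precursors, and it had 8.09 and 10.7 CPM in control, 6.56, 7.999 and 6.48 in anti-Abeta, and 6.66, 7.39 and 10.2 in sh-APP. The control and sh-APP libraries overlapped, and the log2 fold change was -0.21 with a 95% interval from -0.66 to 0.24 (adjusted p = 0.415, edgeR). A rise of the size seen for Ncan or Bcan lies outside that interval. Acan, the gene of the cartilage lectican aggrecan, had 4 counts in all 8 libraries together: 1 in control replicate 2, 1 in sh-APP replicate 1 and 2 in sh-APP replicate 2. In each of the 5 libraries at 0, a level of up to 0.0611 to 0.0856 CPM (3 counts) is allowed by counting error alone. No difference in Acan was detectable at this depth.

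Ptprz1 encodes a receptor-type tyrosine phosphatase that carries chondroitin sulfate, and its secreted form is the matrix proteoglycan phosphacan. The gene had 2243 and 2350 CPM in control, 1557, 2048 and 1767 in anti-Abeta, and 1247, 1701 and 1550 in sh-APP. All sh-APP libraries lay below both controls, in the direction opposite to Ncan and Bcan. The log2 fold change was -0.61 ± 0.13 (SE, adjusted p = 0.00141, edgeR), and it ran from -0.71 to -0.41 over the 18 alternatives, all with the call kept. Cspg5 encodes neuroglycan C, a transmembrane proteoglycan of the nervous system. It had 106 and 126 CPM in control, 116, 148 and 138 in anti-Abeta, and 122, 123 and 123 in sh-APP. The groups overlapped, and the 95% interval of the log2 fold change in sh-APP, -0.14 to 0.31, leaves out changes of the size seen in the 4 called genes. With library totals alone Cspg5 was at 0.29 (adjusted p = 0.0273), and without control replicate 1 it was at -0.027, so its sign was not settled.

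Tnc encodes tenascin C, a hexameric glycoprotein that rises in injured tissue, and Tnr encodes tenascin R, a trimeric glycoprotein made mainly by oligodendrocytes and some neurons. Tnc had 152 and 94.0 CPM in control, 184, 129 and 167 in anti-Abeta, and 115, 143 and 143 in sh-APP. The control libraries spanned all 3 sh-APP libraries, and the log2 fold change was 0.12 ± 0.19 (SE, adjusted p = 0.630, edgeR). The Tnc value turned on the controls: it was 0.51 (adjusted p = 0.0476) without control replicate 1 and -0.17 without control replicate 2. Tnr had 1.22 and 0.567 CPM in control, 1.46, 0.905 and 0.408 in anti-Abeta, and 1.21, 1.18 and 3.32 in sh-APP. Only sh-APP replicate 3 stood above the rest, and the log2 fold change of 1.09 (95% interval -0.24 to 2.42) was 0.42 without it and 1.75 without control replicate 1. In a rat gene table of a later build, Tnc, Tnr and Has2 each overlap 1 long noncoding gene. The sources do not state whether counting used the strand, so reads of these 3 genes are less certain.

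Has2 encodes the main synthase of long hyaluronan chains, the backbone to which lecticans attach. It stood at 33.5 and 21.1 CPM in control, at 19.4, 18.4 and 17.0 in anti-Abeta, and at 13.3, 14.5 and 15.1 in sh-APP. The 3 groups did not overlap, although control replicate 1 was far above replicate 2. The log2 fold change in sh-APP was -0.93 ± 0.17 (SE, adjusted p = 0.000491, edgeR). It was -0.55 without control replicate 1 (adjusted p = 0.0134) and -1.21 without control replicate 2, so the call held and its size rested on which control was used.

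**Figure D2:**
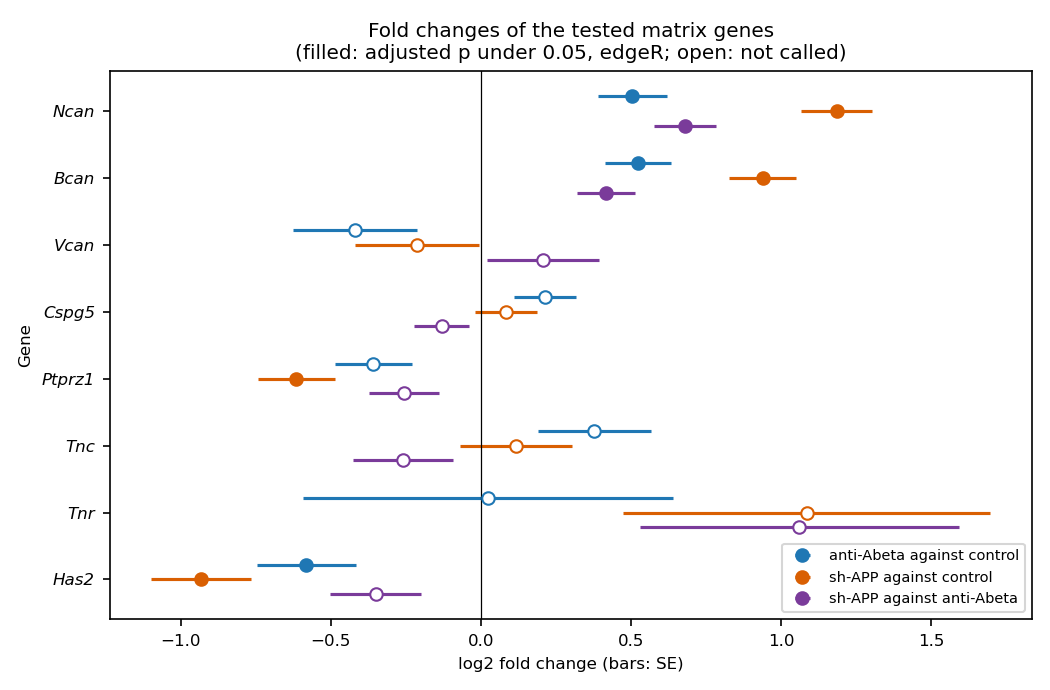
Log2 fold changes with SE bars of the 8 tested matrix genes in 3 comparisons, filled where called at an adjusted p under 0.05 in edgeR and open where not. Ncan and Bcan are filled and positive in all 3 comparisons, while Ptprz1 is filled only for sh-APP against control and Has2 for both arms against control.

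The next comparison asks what the antibody against amyloid beta changed. Ncan and Bcan rose, by 1.42-fold and 1.44-fold, and Has2 fell to 0.668 of the control level. The other 5 tested genes were not called. In this comparison the share called over all tested genes was 29.2% (12.7% higher, 16.6% lower). Libraries did not overlap for 5 of the 8 genes, 2 above and 3 below, as for 54.9% of all tested genes (27.9% above, 27% below). The log2 fold change of Ncan was 0.50 ± 0.12 (SE, adjusted p = 0.00895, edgeR) and that of Bcan was 0.52 ± 0.11 (adjusted p = 0.00613). All 3 anti-Abeta libraries were above both controls for both genes. These calls needed both controls: without control replicate 1 the adjusted p was 0.0564 for Ncan and 0.0529 for Bcan, and without control replicate 2 it was 0.0878 and 0.0574. The fold changes themselves stayed between 0.40 and 0.66 for Ncan and between 0.44 and 0.68 for Bcan over the 18 alternatives.

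Has2 in anti-Abeta had a log2 fold change of -0.58 ± 0.17 (SE, adjusted p = 0.0223, edgeR), which shrank to -0.22 (adjusted p = 0.378) without control replicate 1. It was -0.88 without control replicate 2, and it lost its call without anti-Abeta replicate 3 (adjusted p = 0.0694). Ptprz1 just missed the threshold, at -0.36 ± 0.13 (adjusted p = 0.0536). All anti-Abeta libraries of Ptprz1 were below both controls, and 9 of 18 alternatives called it, among them DESeq2 (adjusted p = 0.0175) and the fit without anti-Abeta replicate 2 (0.00922). The other 9 did not call it, and its value ran from -0.48 to -0.21 over the 18. Vcan was also lower in all 3 anti-Abeta libraries than in both controls, by -0.42 (95% interval -0.87 to 0.03), without a call (adjusted p = 0.149), and it was at -0.21 (adjusted p = 0.620) without control replicate 2 and -0.61 (0.158) without control replicate 1. Cspg5 had 0.21 (95% interval -0.01 to 0.44), Tnc 0.38 (-0.03 to 0.79) and Tnr 0.02 (-1.32 to 1.37). The Cspg5 value was called with library totals alone (adjusted p = 0.0150) and without anti-Abeta replicate 1 (0.0422), and it was at 0.086 (adjusted p = 0.714) without control replicate 1, 0.12 (0.389) without anti-Abeta replicate 2 and 0.34 (0.0997) without control replicate 2. Tnc was at 0.07 without control replicate 2 and at 0.76 without control replicate 1.

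The arms were then compared with each other, which does not use the control levels. Ncan and Bcan were higher in sh-APP than in anti-Abeta, by 1.60-fold and 1.33-fold, and the other 6 were not called in edgeR's test. Over all tested genes the share called was 26.1% (10.1% higher, 16% lower). Libraries did not overlap for 3 of the 8 genes, 2 above and 1 below, as for 41.3% of all tested genes (19.2% above, 22.1% below). The log2 difference was 0.68 ± 0.10 for Ncan (SE, adjusted p = 0.00116, edgeR) and 0.42 ± 0.10 for Bcan (adjusted p = 0.00879), and both calls held under all 18 alternatives. Has2 was lower in every sh-APP library than in every anti-Abeta library, at -0.35 ± 0.15 (adjusted p = 0.112). It was called with only these groups in the fit (adjusted p = 0.0450, edgeR) and without either control replicate (-0.33 each). These fits drop control libraries and so change the shared spread. The other 15 of 18 alternatives did not call Has2, and its value ran from -0.40 to -0.30. Ptprz1 was at -0.26 ± 0.12 (adjusted p = 0.125) with overlapping libraries, anti-Abeta replicate 1 (1557 CPM) lying below sh-APP replicate 2 (1701 CPM). The differences of Vcan (0.21), Cspg5 (-0.13), Tnc (-0.26) and Tnr (1.06) were not called. With 1 library left out at a time, their lowest adjusted p was 0.0839 (edgeR), and their values ran from 0.0030 to 0.33 for Vcan, -0.22 to -0.032 for Cspg5, -0.37 to -0.15 for Tnc and 0.39 to 1.54 for Tnr. Vcan and Tnr were lowest without sh-APP replicate 3, while Tnc and Cspg5 were nearest 0 without anti-Abeta replicate 1 and anti-Abeta replicate 2. Both arms share the same 2 controls, so their fold changes against control are not independent of each other.

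The balance of higher and lower genes rested on the scaling. TMM factors were 0.901 and 0.923 for control, 0.987 to 1.03 for anti-Abeta and 1.04 to 1.06 for sh-APP. With library totals alone the median log2 fold change of all tested genes was 0.23 in sh-APP and 0.18 in anti-Abeta, in place of 0.03 in both, and with upper-quartile factors it was 0.11 and 0.07. Of the called genes, 62.6% were then higher in sh-APP with library totals in place of 48.0%, and 71.7% in anti-Abeta in place of 43.4%. Under library totals Ncan in sh-APP was at 1.39 and Bcan at 1.14, and Ptprz1 at -0.41 and Has2 at -0.72, so the 4 calls kept their direction.

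Ratios of counts within a library do not depend on scaling. The pairs were chosen after the levels had been seen and were not tested. The Ncan to Ptprz1 ratio was 0.373 and 0.308 in control, 0.688, 0.494 and 0.699 in anti-Abeta, and 1.39, 0.922 and 1.30 in sh-APP. It averaged 0.341 ± 0.0456 (SD, n = 2), 0.627 ± 0.116 (n = 3) and 1.21 ± 0.250 (n = 3), and the groups did not overlap. The Bcan to Ptprz1 ratio, likewise without overlap, averaged 0.229 ± 0.0255 (control), 0.429 ± 0.105 (anti-Abeta) and 0.686 ± 0.160 (sh-APP). Ncan relative to Bcan was at 1.46 to 1.51 in control and 1.35 to 1.59 in anti-Abeta. It was 1.61, 1.66 and 2.03 in sh-APP, above every library of the other groups. Ncan and Bcan thus shifted far more against Ptprz1 than against each other.

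**Figure D3:**
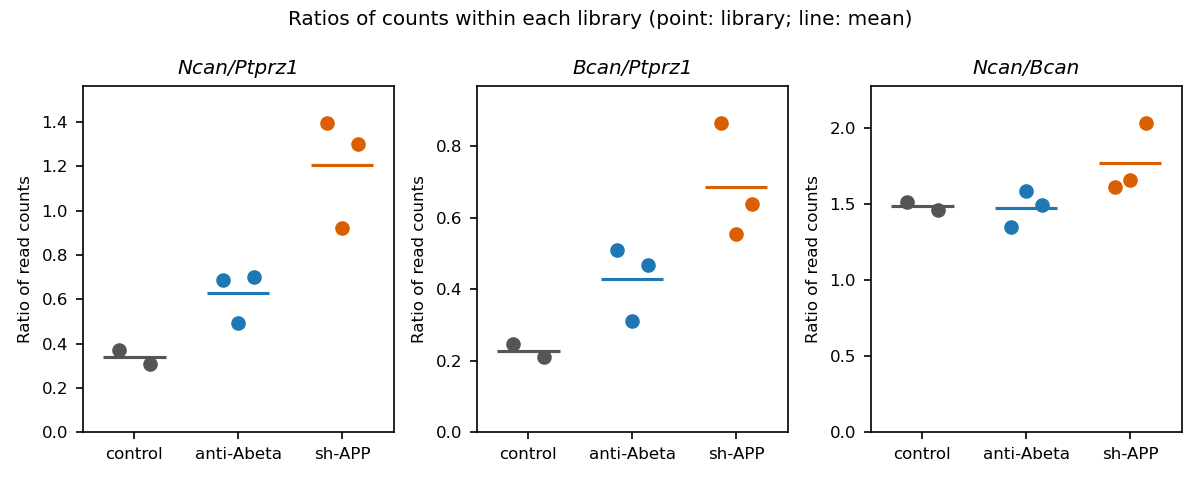
Ratios of read counts of 2 genes within each library on linear axes from 0, with points for libraries and lines for group means (control n = 2, anti-Abeta n = 3, sh-APP n = 3). The Ncan to Ptprz1 ratio is at 0.308 to 0.373 in control and 0.922 to 1.39 in sh-APP. Ncan to Bcan is at 1.35 to 1.59 in the control and anti-Abeta libraries and at 1.61 to 2.03 in sh-APP.

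The wider pathway was described through 5 lists with 73 gene names, of which 68 were tested. Among genes for chondroitin sulfate synthesis and sulfation, 6 of 19 tested rose and 3 fell in sh-APP (median log2 fold change -0.02, against 0.03 over all genes). The 9 called of 19 stand beside 53.7% called over all tested genes (25.8% higher, 27.9% lower), and the lists below are to be read against the same shares. Chpf and Chpf2, which take part in lengthening the chondroitin chain, rose by 0.85 ± 0.08 and 0.66 ± 0.08 on the log2 scale (SE). Chpf had 223 and 227 CPM in control, 318, 299 and 352 in anti-Abeta and 413, 404 and 402 in sh-APP, again with no overlap between the 3 groups. Xylt2, which starts the sugar chain on the core protein, rose by 0.73 ± 0.08, and B3gat3, which completes the linker of the chain, by 0.65 ± 0.08. B4galt7, another linker enzyme, and Chst12, a chondroitin sulfotransferase, rose as well. The 3 that fell were the chain polymerase Chsy1 (-0.66), the initiating enzyme Csgalnact2 (-0.74) and the sulfotransferase Chst7 (-0.49). B4galt7, Chst12 and these 3 were named with their values in view.

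The list of hyaluronan handling and link proteins had 2 of 12 tested genes higher and 1 lower in sh-APP, with a median of 0.18, where 53.7% of all tested genes were called. Ugdh, whose product makes the UDP-glucuronic acid used for hyaluronan and chondroitin chains, fell by 0.50 on the log2 scale, from 78.0 ± 0.463 CPM (SD, n = 2) to 55.1 ± 4.13 (n = 3). Hyal2, a hyaluronidase, rose by 0.42 ± 0.09 (SE). Has3, a second hyaluronan synthase gene, was called higher at 1.66, but at means of 0.315 and 0.999 CPM, and the call was lost without control replicate 1 (adjusted p = 0.128), control replicate 2 (0.0707) or sh-APP replicate 3 (0.0925) and with limma-voom (0.0570). Hapln1, the link protein that locks lecticans onto hyaluronan, was nearly absent, with means of 1.26 CPM (control) and 0.536 CPM (sh-APP) (log2 fold change -1.23 ± 0.59, adjusted p = 0.101). Cd44, the cell surface receptor of hyaluronan, had means of 315 and 280 CPM and a value of -0.17 ± 0.10 (adjusted p = 0.161), which became 0.033 with library totals alone.

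Other proteoglycan genes gave 7 higher and 2 lower among 17 tested in sh-APP, with a median of 0.40. The 9 called of 17 are near the 53.7% called over all tested genes. Bgn, the gene of the small leucine-rich proteoglycan biglycan, rose by 1.21 ± 0.17 (SE), from 302 and 188 CPM in control to 593, 526 and 583. Gpc1, a glypican, and Sdc3, a syndecan of the nervous system, rose by 0.85 ± 0.09 and 0.81 ± 0.12. Sdc2, another syndecan, fell by 1.02 on the log2 scale, from 368 and 342 CPM to 164, 173 and 186. Bgn was without a call in anti-Abeta (0.34, adjusted p = 0.149), where it was at 0.71 (adjusted p = 0.0481) without control replicate 1 and at 0.038 (adjusted p = 0.884) without control replicate 2, and its difference between the arms was 0.87 ± 0.15 (adjusted p = 0.00211, edgeR).

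**Figure D4:**
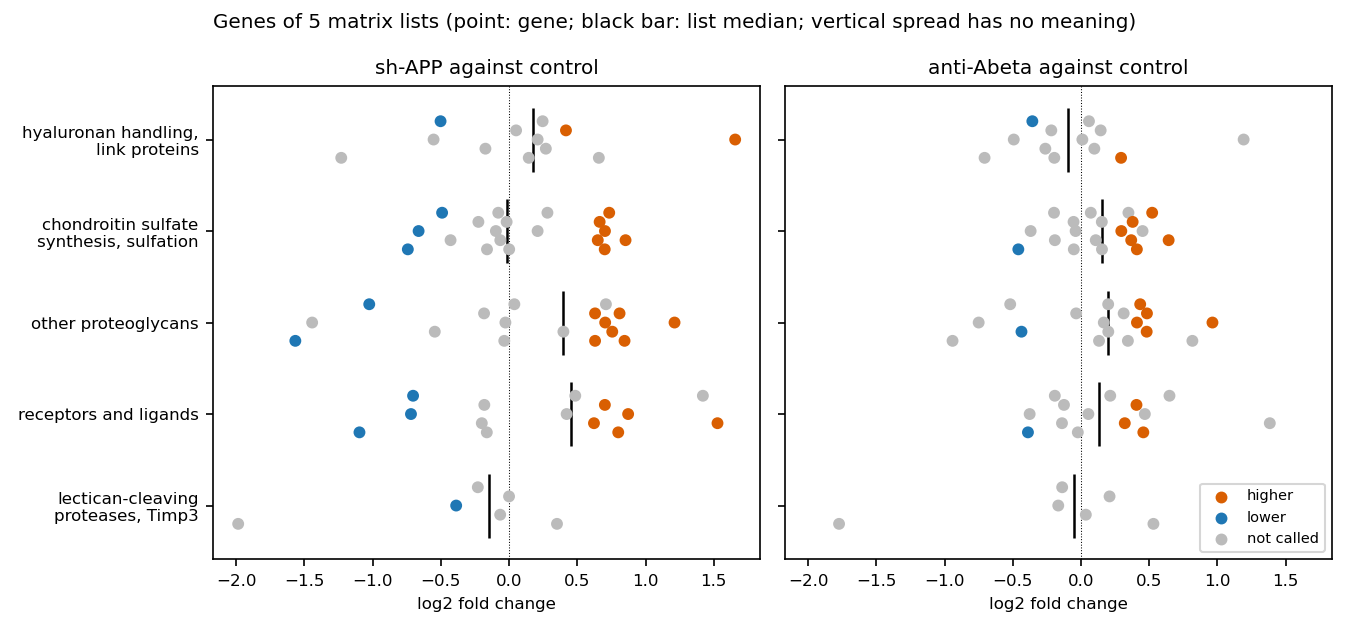
Log2 fold changes of the tested genes of 5 matrix lists in sh-APP (left) and anti-Abeta (right) against control, coloured by edgeR call, with black bars for list medians. In sh-APP the medians run from -0.15 for the lectican-cleaving proteases to 0.45 for receptors and ligands.

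Among receptors and ligands of these matrix molecules, 5 of 14 tested rose and 3 fell in sh-APP, with a median of 0.45. The 8 called of 14 are near the 53.7% called over all tested genes. Ptprs and Ptprf, phosphatases of the family that binds chondroitin sulfate, rose by 0.62 ± 0.08 and 0.70 ± 0.09 (SE). Itgb1, the integrin beta chain shared by many matrix receptors, fell by 0.70 on the log2 scale, from 1740 ± 106 CPM (SD, n = 2) to 1069 ± 64.8 (n = 3). The growth factors midkine (Mdk) and pleiotrophin (Ptn) both bind Ptprz1, and they moved in opposite directions. Mdk rose by 0.80 ± 0.11, from 24.6 and 22.7 CPM to 39.6, 41.6 and 42.4. Ptn, picked after its values were seen, fell by 1.10 on the log2 scale (adjusted p = 0.00122, edgeR), from 5183 and 5749 CPM to 2359, 2385 and 2927. In anti-Abeta Ptn stood at 3621, 6080 and 2932 CPM, with replicate 2 above both controls. Its value there was -0.38 (adjusted p = 0.231), and -0.75 (adjusted p = 0.000756) without anti-Abeta replicate 2. Cntn1, a neural adhesion molecule that binds Ptprz1, also fell in sh-APP, by 0.72 on the log2 scale, and was picked after its values were seen.

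Of 6 genes for proteases that cut lecticans and their inhibitor Timp3, 1 fell in sh-APP in edgeR's test and 5 were not called, with a median of -0.15, where 53.7% of all tested genes were called. The number that fell was 2 without anti-Abeta replicate 2, with no low-count filter and with only the groups compared. The gene that fell was Adamts1 (-0.39, adjusted p = 0.00727), whose call was lost without control replicate 1 (0.0895) and with library totals alone (0.156). Adamts4, a brevican-cutting enzyme named with its value in view, had -0.06 ± 0.12 (adjusted p = 0.682).

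In anti-Abeta the same lists gave 6 higher and 1 lower of 19 tested for chondroitin sulfate synthesis, 1 and 1 of 12 for hyaluronan and link proteins, 5 and 1 of 17 for other proteoglycans, and 3 and 1 of 14 for receptors and ligands. The share called over all tested genes was 29.2% (12.7% higher, 16.6% lower). Without control replicate 1 the number called in edgeR's test was 1, 0, 1 and 0, and without control replicate 2 it was 0 for hyaluronan and link proteins and 3 for other proteoglycans. Chpf rose by 0.52 ± 0.08 (SE, adjusted p = 0.00226, edgeR), and it was also higher in sh-APP than in anti-Abeta, by 0.33 ± 0.07 (adjusted p = 0.00484). In the protease list edgeR, DESeq2 and limma-voom each called 0 of 6, 1 gene had an unadjusted p under 0.05 in edgeR, and 2 were called without anti-Abeta replicate 2.

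Between the arms, 5 of 19 chondroitin sulfate genes were higher in sh-APP and 1 lower, 6 and 2 of 17 other proteoglycan genes, and 2 and 5 of 14 receptor and ligand genes. Over all tested genes 26.1% were called (10.1% higher, 16% lower). Without sh-APP replicate 1 or without sh-APP replicate 3, 5 of the other proteoglycan genes were called in place of 8. Gpc1 and Mdk were higher in sh-APP than in anti-Abeta, by 0.37 ± 0.08 and 0.48 ± 0.10 on the log2 scale (SE), and Sdc2 and Itgb1 were lower, at -0.59 ± 0.07 and -0.31 ± 0.07.

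For each tested gene the most similar genes were sought by Pearson's r of log2 CPM over the 8 libraries, among genes with a mean of at least 5 CPM. These values describe profiles in which the 3 groups supply much of the variation, and genes share library and scaling. Closest to Ncan were Zfp36 (r = 0.993), Pdlim5 (0.993) and Fam129b (0.992). Closest to Bcan were Ddx56 (0.995), Gtf2f1 (0.994) and Cux1 (0.993). All 6 were called higher in sh-APP. Trove2 (0.992), Qser1 (0.988) and Plk4 (0.986) were nearest to Ptprz1, and Ldah (0.994), Ddx10 (0.988) and Ubxn8 (0.983) to Has2, and all of these were called lower. For the uncalled genes the nearest were Nebl for Vcan (0.964), Clcn6 for Cspg5 (0.932), Qsox2 for Tnc (0.962) and Pcdhga4 for Tnr (0.956).

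Markers of cell types were read beside these results. The 9 astrocyte markers were all present, with a summed level of 15686 to 16044 CPM (control), 13777 to 14774 (anti-Abeta) and 16873 to 19351 (sh-APP). In sh-APP 6 of them were called higher and 1 lower. Gfap, the astrocyte intermediate filament gene, stood at 2924 and 2897 CPM in control, 3914, 3388 and 3883 in anti-Abeta, and 7180, 5513 and 6902 in sh-APP, the order seen for Ncan and Bcan. The higher sum in sh-APP rested on Gfap. The marker called lower was Gja1, which ran the opposite way, with means of 3682 (control), 2643 (anti-Abeta) and 2146 CPM (sh-APP). For anti-Abeta the markers called higher were Gfap, Aldh1l1 and Sox9, and those called lower were Aqp4, Slc1a3 and Gja1. The Gfap call there was lost without anti-Abeta replicate 1 (adjusted p = 0.0847, edgeR) or replicate 3 (0.0872). It also needed both controls, with a log2 fold change of 0.35 without control replicate 1 and 0.35 without control replicate 2. Cells of the oligodendrocyte lineage also make Bcan, Vcan, Tnr and Ptprz1. Their 11 markers summed to 2673 to 2785 CPM (control), 3150 to 3495 (anti-Abeta) and 3150 to 3307 (sh-APP), with Gpr17 and Mbp under 1 CPM, and in sh-APP 1 of 10 tested rose and 2 fell. The gene that rose was Olig1, a lineage factor (0.32, means 1819 and 2263 CPM), and Olig2 and Cnp were above both controls in all sh-APP libraries without a call (0.06 and 0.12). The 2 that fell were Pdgfra, a receptor of precursors (-0.998, means 33.7 and 16.9 CPM), and Ugt8 (-2.37, means 5.86 and 1.13 CPM), in the direction of Ptprz1. Cspg4, another precursor marker, went the other way without a call (0.40, means 5.45 and 7.18 CPM). For anti-Abeta Cspg4 (0.96), Olig1 and Cnp were called higher and Ugt8 lower, and 7 of 18 alternatives lost the Ugt8 call. The part of these cells in the Ptprz1 and Bcan results was not tested. Neuron markers summed to 334 to 359 CPM (control), 227 to 293 (anti-Abeta) and 156 to 166 (sh-APP). Of the 8, 3 were called higher and 3 lower in sh-APP, and 0 higher and 2 lower (Snap25 and Map2) in anti-Abeta. Between control and sh-APP, Map2 (means 246 and 104 CPM) and Snap25 (68.3 and 23.0 CPM) made up most of the fall. Stmn2 (1.43 and 8.23 CPM), Tubb3 (2.54 and 5.08 CPM) and Rbfox3 (1.58 and 2.599 CPM) rose in sh-APP. The part of these genes' cells in the results was not tested. Fibroblast and pericyte markers summed to 49.2 to 65.8 CPM over all libraries. Microglia markers reached at most 1.59 CPM with Cx3cr1 at 0, and endothelial markers at most 0.661 CPM with Cldn5 at 0. Melanocyte and melanoma markers summed to 45.1 to 46.9 CPM (control), 32.2 to 48.0 (anti-Abeta) and 29.7 to 31.3 (sh-APP). Mitf made up most of each sum, with means of 41.5 CPM (control), 32.4 (anti-Abeta) and 27.0 (sh-APP), and was called lower in sh-APP. Pmel, Mlana, Tyr, Tyrp1 and Dct were each under 1 CPM on average, so the fall does not describe them.

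**Figure D5:**
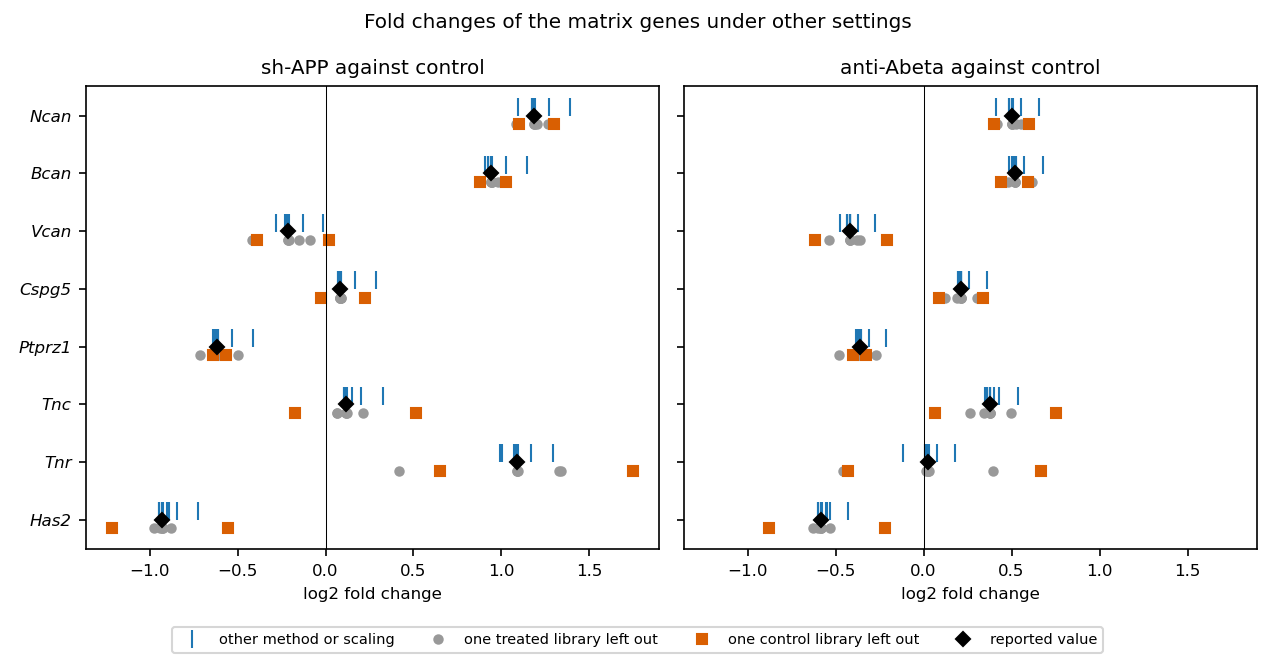
Log2 fold changes of the 8 tested matrix genes under the reported fit (diamonds), other methods or scalings (ticks), and fits with a treated (circles) or control (squares) library left out. Ncan and Bcan stay right of 0 and Ptprz1 and Has2 left of it in both comparisons, while the values of Tnc, Tnr and Has2 spread most when a control library is left out.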

How the data were processed

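The authors deposited raw counts per gene symbol for 8 libraries, checked here to be whole numbers with differing totals. Per the submitters' processing notes, the tools included Trimmomatic 0.36, STAR 2.6.0a, HTSeq 0.11.1 and DESeq2 1.24.0, and the build was rn6. The sources used here do not give their settings or the strand of counting. Of the 28546 rows, 8853 held no count. After filterByExpr (minimum count 10, minimum total 15), 14445 genes were scaled by TMM and tested in R 4.3.3 with edgeR 4.0.16, by the robust quasi-likelihood test. The model held the group alone, over all 8 libraries, which leaves 5 residual degrees of freedom. SE was taken as the log2 fold change over the root of its F value. The control has only 2 libraries, so all groups share the estimate of the spread. For genes with many counts the spread between libraries, more than the depth, sets the precision. For scarce genes such as Tnr, Hapln1, Has3 and Acan the depth limits it as well. Intervals and limits from counts cover counting error only.

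The 9 genes, the lists and the tests were chosen with earlier results of these data known. All 9 genes are named, with up to 4 called genes per list by smallest p in sh-APP, Hapln1, Cd44 and Gfap, and the 3 most similar genes of each tested gene (log2 CPM with a prior count of 2). Cemip2 and its older name Tmem2 are both on the hyaluronan list, and only Tmem2 is in the table. Alternatives were DESeq2 1.42.0, limma-voom (limma 3.58.1), RLE factors, upper-quartile factors, library totals, no filter, a filter of 1 CPM in 3 libraries, a non-robust spread, only the groups compared, a replicate block, and each library left out. Those for the lists and their genes were added after the data were seen. Data were also simulated for sh-APP against control (14205 genes), with 67 genes changed 1.5-fold, 67 changed 2-fold and 66 changed 4-fold. The test found 46.3%, 65.7% and 86.4% of these, with 7 false calls. In the real comparison 53.7% of genes were called. With so few changed genes the adjusted threshold is stricter in the simulation, so these rates do not carry over to the real comparison. Start-site sequences came from RefSeq and were matched by symbol.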

Additional observations from a re-analysis of the deposited data

How the results depend on the processing

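Of 432 values of the 8 tested matrix genes under 18 alternatives each, 403 kept direction and side of the threshold, 6 lost a call, 17 gained one and 6 changed sign. With 1 library left out at a time, the number of the 8 genes called ran from 0 to 4 in anti-Abeta against control (3 with all libraries), 0 without control replicate 1 and 1 without control replicate 2. The number of all genes called ran from 439 to 4775 in anti-Abeta (4223 with all libraries), with the lowest without control replicate 1, 2431 without control replicate 2 and 2594 without anti-Abeta replicate 3. For sh-APP against anti-Abeta it ran from 2233, without sh-APP replicate 1, to 3582 (3768 with all libraries). These fits hold fewer samples, and other causes were not tested. The sign changes were all in uncalled values. With a library left out, Cspg5 in sh-APP ran from -0.027 to 0.23, Vcan from -0.42 to 0.017 and Tnc from -0.17 to 0.51, and Tnr in anti-Abeta from -0.46 to 0.67. Tnr in anti-Abeta was at -0.12 with limma-voom, and Cd44 in sh-APP at 0.033 with library totals. With library totals 49.5% of the genes called between the arms were higher in sh-APP, in place of 38.5%, and with upper-quartile factors 53.9% of those called in anti-Abeta were higher, in place of 43.4%. With a control library left out, the lone control is assumed to vary like the other groups. In the list of receptors and ligands, 8 genes were called in anti-Abeta with library totals and 7 without anti-Abeta replicate 2, in place of 4.

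The r of deviations of libraries with the same replicate number ran from -0.0106 to 0.105 over 7 pairs. Between the arms it was 0.105 for replicates 1, 0.0984 for replicates 2 and -0.00562 for replicates 3. The crossed pairs of replicates 1 and 2 had -0.108 and -0.101. With 2 controls the deviations mirror each other, so pairs with a control cannot decide. Whether the numbers mark a pairing was not settled, and the main model does not use them. With the replicate number as a block, 4 of the matrix genes were called in sh-APP, 4 in anti-Abeta and 3 between the arms, where Ptprz1 was added in the latter comparisons (adjusted p = 0.0142 and 0.0351), and all genes called were 7328, 3480 and 3675. Hapln1 in sh-APP (-1.82, adjusted p = 0.0114) and Bgn in anti-Abeta (0.32, 0.0438) were called under the block, and Has3 in sh-APP lost its call (0.0643).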
